A study of Homo sapiens with 6 samples.

Results

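The human genes named ZBTB, ZSCAN and ZKSCAN, which encode zinc finger proteins with a BTB or a SCAN domain, were followed in HCT116 colon carcinoma cells after curcumin. Members were taken by symbol alone from the 35106 rows of the deposited count table, with pseudogenes left out. This gave 70 genes, of which 42 were ZBTB, 21 ZSCAN and 7 ZKSCAN genes. The pseudogene ZBTB12BP was dropped. ZBTB8OS met the symbol rule but encodes archease, a cofactor of the transfer RNA ligase complex, and is no zinc finger protein. RNA was sequenced from 3 libraries of cells given 30 µM curcumin, the yellow polyphenol of turmeric, for 24 h, and from 3 libraries of untreated cells. The labels write the unit of the dose as micrometres, and it is read here as µM. Untreated cells carry the treatment label none, no label names a solvent for curcumin, and all 6 libraries have the genotype label WT. Whether replicates came from separate cultures is not stated, so the p-values cover the spread among these 6 libraries, which may be technical.

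ZBTB proteins pair through an amino-terminal BTB domain, which in many members also binds corepressors and histone deacetylases, and read DNA with carboxy-terminal C2H2 zinc fingers. The SCAN domain is a leucine-rich pairing module. ZSCAN genes join it to zinc fingers, and ZKSCAN genes add a KRAB domain. In many other zinc finger proteins a KRAB domain recruits the corepressor TRIM28, and whether ZKSCAN proteins do so was not tested. In intestinal and colon cancer cells the best studied members are ZBTB33 (Kaiso), which binds methylated DNA and the catenin p120, and ZKSCAN3, known as a repressor of autophagy genes. ZBTB4 and ZBTB10 are known as repressors of genes driven by Sp transcription factors.

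Library totals were 16663562 to 17893056 counts after curcumin and 18154380 to 20311769 counts in untreated cells, and 3 counts corresponded to 0.224 to 0.238 and 0.114 to 0.123 TMM-scaled CPM. That floor covers counting error only. The 100 most abundant genes took 39.9 to 43.3% of counts after curcumin and 18.9 to 22.7% in untreated libraries. TMM factors were 0.716 to 0.804 after curcumin and 1.2996 to 1.3406 in untreated libraries, so a rise or fall is measured against the rest of each library. Scaled by library size alone, the median log2 fold change of all tested genes was −0.84, against −0.04 on the TMM scale. The keratin KRT8 and the adhesion molecule EPCAM, both epithelial markers, were abundant in both groups, while the intestinal markers CDX1 and VIL1 stood at or near 0 (means of 0.0264 and 0.525 CPM after curcumin, 0 and 0.204 CPM untreated). The colon epithelial markers LGALS4 and CDH17 averaged 2.35 and 0.915 CPM after curcumin, against 0.0526 and 0 CPM untreated. LGALS4 was called higher (log2 fold change 5.32), and CDH17 was not tested. The intestinal transcription factor CDX2 averaged 9.63 CPM after curcumin and 25.4 CPM untreated and was the 1 colon epithelial marker called lower, while 5 were called higher. Summed over 10 colon epithelial markers, 7215 to 8458 CPM were found after curcumin and 3787 to 4484 CPM in untreated cells, nearly all from KRT8, KRT18, KRT19 and EPCAM. With library size alone 2 of these markers were higher and 2 lower (median log2 fold change −0.12). After removal of the trend of fold change with transcript length and GC content, described further on, 3 were higher and 1 lower (median 0.35). Both leukocyte markers that could be tested, CD14 and CD68, rose, and the 4 leukocyte markers summed to 25.9 to 59.7 CPM after curcumin and 2.51 to 3.98 CPM untreated. Of these, the leukocyte-defining PTPRC averaged 0.289 CPM after curcumin and 0 untreated, and CD3E was listed at 0 throughout. For 3 endothelial markers the sums were 8.29 to 28.0 and 1.36 to 2.20 CPM, with a rise in PECAM1 and CDH5 at 0.0264 CPM after curcumin and 0.105 CPM untreated. The 5 fibroblast markers summed to 15.5 to 38.3 and 26.0 to 31.1 CPM, nearly all COL1A1. The part of these marker changes in the results was not tested.

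Most expressed members were lower after curcumin. Of the 70 genes, 59 passed the filter on low counts, and edgeR's quasi-likelihood test over all 13718 genes called 32 of them lower and 3 higher. These were 54.2% and 5.08% of the 59, against 28.9% lower and 27.2% higher among all genes tested. By subfamily, 24 of 39 tested ZBTB genes (61.5%) fell and 3 rose. Falls were called for 4 of 14 ZSCAN genes (28.6%) and 4 of 6 ZKSCAN genes (66.7%). The ZSCAN share was close to that over all genes. With all 6 libraries and the filter on low counts, no ZSCAN or ZKSCAN gene was called higher by edgeR, DESeq2 or limma-voom, and 0 of either had an unadjusted p under 0.05 in the higher direction. The median log2 fold change, curcumin over untreated, was −0.93 over the 59 tested members and −0.04 over all tested genes. It was −1.12 for ZBTB, −0.57 for ZSCAN and −1.23 for ZKSCAN genes. Falls of at least 2-fold were called for 25 of the 59 tested members (42.4%), against 17.4% of all genes tested. Falls of at least 4-fold were called for 8 of the 59, against 3.62%. In bulk RNA, fewer cells with a transcript and less of it per cell cannot be told apart.

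**Figure D1:**
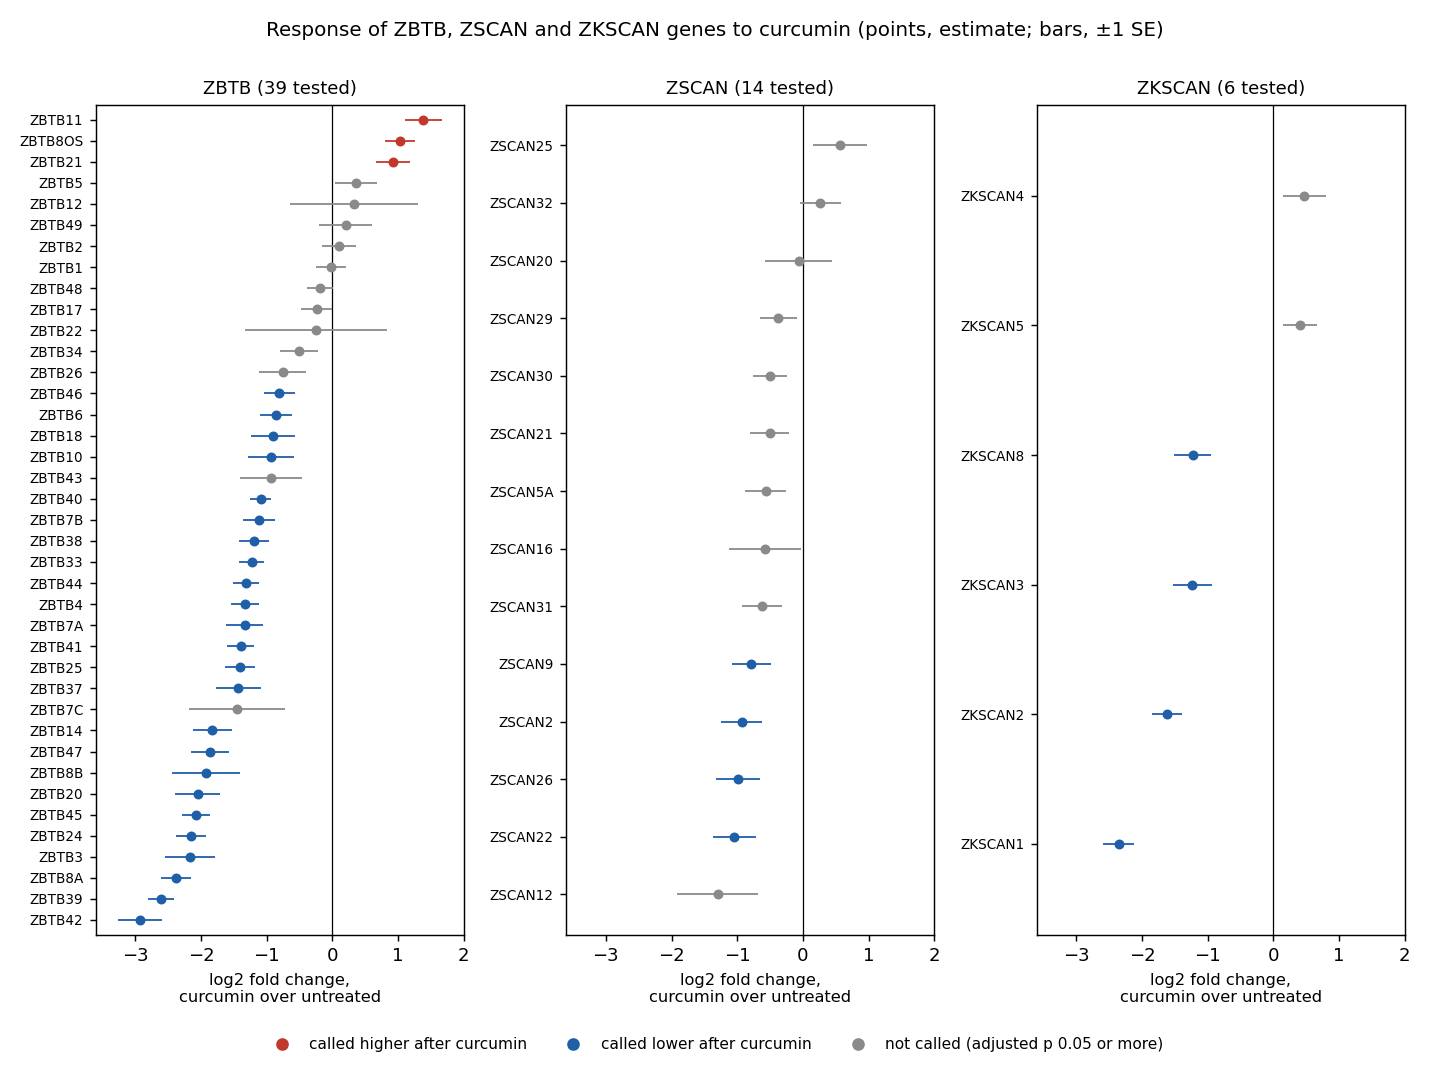
Log2 fold change (x axis, curcumin over untreated) of each of the 59 tested members, with 1 standard error on either side, in 3 panels by subfamily and coloured by call. Of 39 ZBTB genes 24 lie in the lower class, and only ZBTB11, ZBTB8OS and ZBTB21 lie in the higher class.

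Summed over all 70 members, the level was 604, 655 and 1005 CPM in curcumin libraries 1, 2 and 3, against 1179, 1152 and 1361 CPM in untreated libraries 1, 2 and 3. The groups did not overlap in this sum. For the ZSCAN genes alone the sums were 68.2, 72.8 and 141 CPM after curcumin and 113, 106 and 119 CPM untreated, with curcumin replicate 3 above all untreated libraries. All 3 curcumin libraries lay below all 3 untreated ones for 35 of the 59 tested members, against 33.1% of all genes tested. All 3 lay above the untreated ones for 3 of the 59, against 30.9%. Since a gene can enter the test through the group in which it is high, the 59 are not the whole family. ZBTB12, ZBTB7C, ZBTB8B, ZSCAN12 and ZSCAN16 reached the filter only in untreated libraries, ZBTB22 only in curcumin libraries, and the other 53 in both. Curcumin replicate 3 held the highest curcumin value for 42 of the 59 members (71.2%), against 41.3% of all tested genes. Untreated replicate 3 held the highest untreated value for 28 of the 59 (47.5%), against 34.1%. Without curcumin replicate 3, 27 ZBTB, 7 ZSCAN and 4 ZKSCAN genes were called lower, as were 4306 of all genes, against 3964 with it.

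The zinc finger genes ZBTB11 and ZBTB21 went the other way. ZBTB11, a factor known in embryonic stem cells for its role in mitochondrial gene expression, had 50.04, 58.4 and 111 CPM after curcumin, against 25.2, 31.0 and 27.8 CPM in untreated cells. It rose 2.61-fold (log2 fold change 1.39 ± 0.28 SE, adjusted p = 0.0018). ZBTB21, a repressor that binds ZBTB14, had 58.5, 56.3 and 112 CPM after curcumin and 37.4, 36.3 and 46.5 CPM in untreated cells. It rose 1.89-fold (0.92 ± 0.26, adjusted p = 0.012). In both genes each curcumin library lay above each untreated one, with replicate 3 the highest. Neither was called with library size alone, where the log2 values were 0.56 and 0.09 (adjusted p = 0.069 and 0.74), and ZBTB21 was also not called without untreated replicate 1 (adjusted p = 0.053) or with the 100 most abundant genes left out of the library total (0.080). After removal of the trend of fold change with transcript length and GC content, described further on, they stood at 1.96 and 1.68. Without curcumin replicate 3, ZBTB21 stood at 0.52. The 5′ end of ZBTB11 overlaps the antisense RNA ZBTB11-AS1, and ZBTB21 overlaps the noncoding RNA ZNF295-AS1 on the opposite strand. Without strand, reads in these overlaps cannot be told apart.

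Archease, from ZBTB8OS, had 19.3, 20.5 and 14.9 CPM after curcumin and 10.3, 9.86 and 6.76 CPM in untreated cells, with no overlap. The rise was 2.04-fold (log2 1.03 ± 0.23, adjusted p = 0.0038), and was not called with library size alone (0.23, adjusted p = 0.43) or with the length and GC trend removed (0.55, adjusted p = 0.051). The gene (chromosome 1, 32600172 to 32650903, GRCh38) overlaps ZBTB8A on the opposite strand. ZBTB8A had 2.54, 3.01 and 2.66 CPM after curcumin and 14.8, 14.2 and 13.8 CPM untreated, a 5.21-fold fall. Because the use of strand in the counting is not stated, reads from the overlap of this pair cannot be assigned with certainty.

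Sequence from the start of the rising ZBTB21, and of ZBTB39 and ZKSCAN1, the ZBTB and ZKSCAN genes with the smallest adjusted p among those that fell, is shown to compare what lies upstream of genes that moved in opposite directions. The matching ZBTB11 window lies inside that gene's first exon in GENCODE 29 and is not shown. By the same annotation the last bases of the ZBTB21 and ZKSCAN1 windows also lie inside the gene, while the ZBTB39 window ends before it. The windows are thus not placed alike relative to the GENCODE starts. Each line gives the 250 bases before the RefSeq gene start (GRCh38.p14), 5′ to 3′ on the gene's strand. Capitals mark matches, on either strand, to the cyclic AMP response element TGACGTCA, the E-box CACGTG, the GC box GGGCGG, the CCAAT box and the ETS site CCGGAAGT.
ZBTB21 (chr21:42010361-42010610, minus strand): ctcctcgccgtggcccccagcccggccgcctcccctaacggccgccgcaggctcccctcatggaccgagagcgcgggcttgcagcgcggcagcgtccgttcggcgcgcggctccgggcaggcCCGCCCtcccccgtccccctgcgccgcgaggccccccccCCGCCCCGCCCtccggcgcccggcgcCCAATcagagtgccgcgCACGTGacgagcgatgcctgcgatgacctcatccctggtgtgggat
ZBTB39 (chr12:57006547-57006796, minus strand): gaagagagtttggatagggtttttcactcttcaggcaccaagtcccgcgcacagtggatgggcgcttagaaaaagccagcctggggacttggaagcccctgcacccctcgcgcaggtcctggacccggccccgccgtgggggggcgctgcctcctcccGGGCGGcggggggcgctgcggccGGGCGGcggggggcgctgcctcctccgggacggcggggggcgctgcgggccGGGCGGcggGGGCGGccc
ZKSCAN1 (chr7:100015346-100015595, plus strand): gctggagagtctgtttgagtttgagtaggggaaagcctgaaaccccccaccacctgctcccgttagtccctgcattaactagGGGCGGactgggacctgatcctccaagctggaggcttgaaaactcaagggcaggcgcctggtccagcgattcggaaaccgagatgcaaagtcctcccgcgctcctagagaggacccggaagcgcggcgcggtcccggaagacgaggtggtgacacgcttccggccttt
ZBTB21 held 1 E-box, 1 CCAAT box and 3 GC boxes. ZBTB39 held 4 GC boxes and ZKSCAN1 1, with none of the other motifs. The GC content of the windows was 78.4% for ZBTB21, 75.6% for ZBTB39 and 60.8% for ZKSCAN1.

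Over the family, 60 of 70 members had a RefSeq promoter, and the same 250-base windows were searched in all 27305 promoters of the table. An E-box was found in the windows of all 3 rising members (ZBTB21, ZBTB8OS and ZBTB11, whose window is exonic in GENCODE 29), 2 of 26 falling members, 2 of 22 not called and 6.49% of all promoters. The same 3 rising members also held a GC box and a CCAAT box. The GC box was found in 66.7% of the members and in 42.3% of all promoters, with 15 of 26 falling members (57.7%) and 17 of 22 not called (77.3%). Median GC content was 63.6% over the member windows and 58.0% over all windows, which include genes that were not tested. CCAAT was found in 38.3% of members and 33% of all. The cyclic AMP response element was found in 1 member, in the exonic ZBTB11 window, and in 1.77% of all promoters, and the ETS site in 7 members (11.7%) and 3.64% of all. The heat shock element, read as GAA, TTC and GAA with any 2 bases after each of the first pair, was found in 0 members and 0.439% of all promoters. The antioxidant response element TGACNNNGC was found in 9 of 60 members and 11% of all promoters. A match is a run of letters, not a site shown to be bound, and 3 rising members are too few to set against the rest.

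Among ZBTB genes the steepest falls were in ZBTB42, ZBTB39, ZBTB8A, ZBTB3, ZBTB24, ZBTB45 and ZBTB20, each at least 4-fold. ZBTB42, known from skeletal muscle, where it is found at the neuromuscular junction, had 2.46, 1.67 and 1.09 CPM after curcumin and 13.4, 10.6 and 16.0 CPM in untreated cells (7.61-fold lower, log2 −2.93 ± 0.33, adjusted p = 7.2e-05). ZBTB39, a little studied member, had 4.41, 4.92 and 5.31 CPM after curcumin and 25.9, 31.9 and 31.8 CPM untreated (6.12-fold lower, log2 −2.61 ± 0.20, adjusted p = 1.4e-05). The groups of both lay far apart, with the highest curcumin value well under the lowest untreated one. ZBTB24, mutated in the immunodeficiency, centromeric instability and facial anomalies (ICF) syndrome, had 3.96, 3.41 and 4.22 CPM after curcumin and 15.8, 20.1 and 15.6 CPM untreated (log2 −2.15 ± 0.23, adjusted p = 4.5e-05). ZBTB45 had 5.60, 4.52 and 7.26 CPM after curcumin and 25.95, 22.9 and 24.6 CPM untreated (log2 −2.08 ± 0.22, adjusted p = 4.8e-05). Pseudogene copies of ZBTB45 are listed in the same table, so its reads may have been shared out. ZBTB24 and ZBTB8A overlap the counted genes MICAL1 and AL033529.1 on the same strand, so reads there may also have been shared. The same holds for ZBTB38 with PXYLP1 and ZSCAN26 with AL021997.3. ZBTB20, the repressor of alpha-fetoprotein in liver, had 4.85, 10.6 and 13.6 CPM after curcumin and 28.9, 41.1 and 50.6 CPM untreated (log2 −2.05 ± 0.34, adjusted p = 0.00066). ZBTB3 stood lower still in level, at 1.19, 0.872 and 1.80 CPM after curcumin and 5.49, 5.26 and 6.68 CPM untreated. ZBTB42, ZBTB39, ZBTB8A, ZBTB3, ZBTB24, ZBTB45 and ZBTB20 kept their calls under all 15 alternatives, but ZBTB20 stood at −1.05 with the length and GC trend removed.

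**Figure D2:**
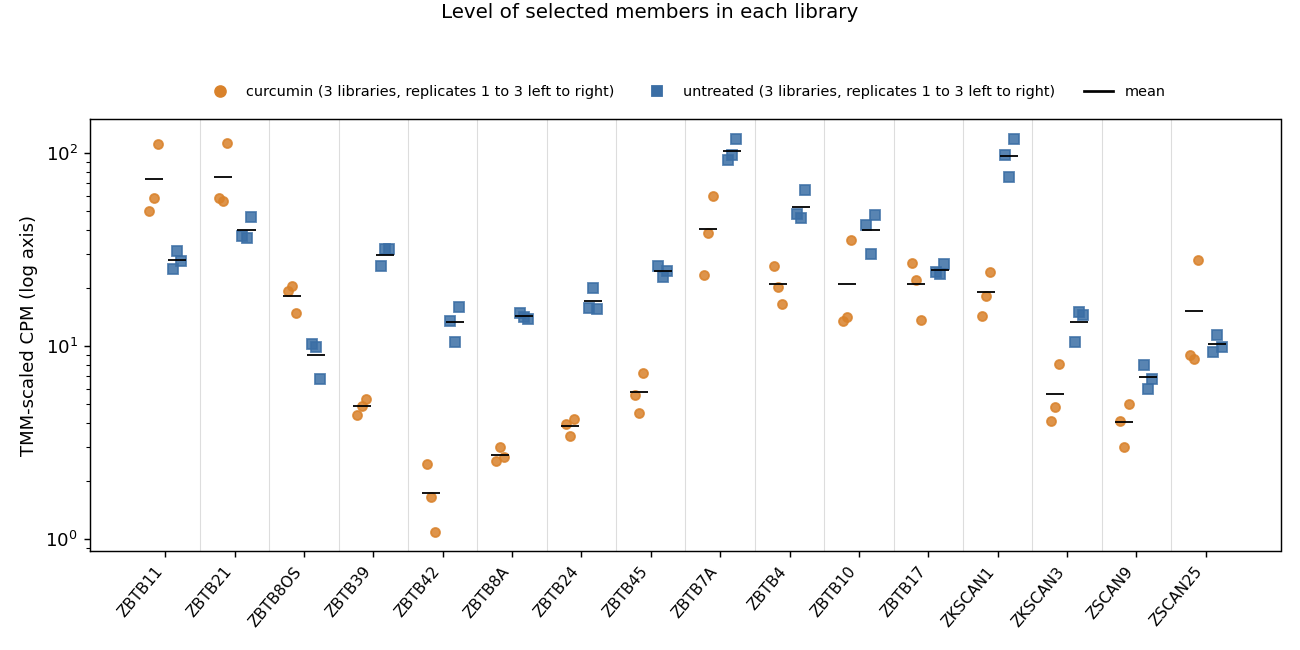
TMM-scaled CPM (y axis, log scale) of 16 members in each library, curcumin to the left of untreated within each gene, with lines at the means. ZBTB39 lies at 4.41 to 5.31 CPM after curcumin and at 25.9 to 31.9 CPM untreated, while ZBTB11 lies higher in all 3 curcumin libraries.

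The members that bind methylated DNA fell together. ZBTB33 (Kaiso) had 13.4, 9.75 and 10.2 CPM after curcumin and 27.4, 24.7 and 26.2 CPM in untreated cells (log2 −1.23 ± 0.19, adjusted p = 0.00042). ZBTB4 had 26.0, 20.4 and 16.6 CPM after curcumin and 48.4, 46.0 and 64.3 CPM untreated (−1.33 ± 0.21, adjusted p = 0.00046). ZBTB38 had 12.2, 15.3 and 19.7 CPM after curcumin and 28.0, 37.8 and 42.3 CPM untreated (−1.20 ± 0.23, adjusted p = 0.0014). None of these groups overlapped. With the length and GC trend removed ZBTB33 and ZBTB4 stayed lower (−0.69 and −0.88, adjusted p = 0.012 and 0.0068) and ZBTB38 was not called (−0.44, adjusted p = 0.089). In a list of 9 methyl-CpG binders and their partners, which includes these 3, 7 fell and 0 rose, with a median of −1.10, against 28.9% lower among all genes. With the length and GC trend removed 5 were lower and 1, MBD1, was higher (0.67, adjusted p = 0.0093), with a median of −0.44. CTNND1, which encodes the Kaiso partner p120 catenin, was at 99.99 ± 10.2 CPM after curcumin and 214 ± 8.96 CPM untreated (SD, n = 3, log2 −1.10).

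ZBTB10, the other known repressor of Sp-driven genes, was less certain than ZBTB4. It had 13.6, 14.1 and 35.6 CPM after curcumin and 42.4, 30.2 and 48.1 CPM in untreated cells, so that curcumin replicate 3 lay inside the untreated range. The fall (log2 −0.93 ± 0.35, adjusted p = 0.044) was not called without curcumin replicate 1 or 2 (adjusted p = 0.12 and 0.14) or untreated replicate 1 or 3 (0.11 and 0.13), nor with RLE factors (0.052), in genes averaging 50 counts or more (0.055) or with the length and GC trend removed (−0.09, adjusted p = 0.825). Without curcumin replicate 3 the log2 value was −1.54. The 4 Sp factor genes SP1, SP2, SP3 and SP4 were also lower, against 28.9% lower among all genes. SP1, which drives many GC-rich promoters, averaged 36.1 ± 2.93 CPM after curcumin and 117 ± 6.12 CPM untreated (log2 −1.70 ± 0.14), and SP4 averaged 2.85 ± 1.04 and 15.7 ± 1.91 CPM (−2.46 ± 0.29). SP3 was not called once the length and GC trend was removed (−0.37, adjusted p = 0.057).

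ZBTB7A and ZBTB7B, which are close relatives, also fell. ZBTB7A (LRF), a silencer of fetal haemoglobin and a repressor of glycolysis genes, had 23.5, 38.5 and 60.1 CPM after curcumin and 92.4, 98.3 and 118 CPM in untreated cells (log2 −1.34 ± 0.28, adjusted p = 0.0027). ZBTB7B (ThPOK), which sets the CD4 T-cell lineage, had 19.5, 24.98 and 40.4 CPM after curcumin and 56.3, 62.3 and 66.4 CPM untreated (−1.12 ± 0.24, adjusted p = 0.0030). Per kilobase of the longest coding transcript these were the most abundant members in untreated cells, at 18.97 and 15.3 CPM per kb, and they stood at 7.51 and 7.04 CPM per kb after curcumin. Highest on that scale after curcumin were ZBTB11 at 12.2, ZBTB8OS at 11.4 and ZBTB21 at 10.2 CPM per kb, against 4.65, 5.60 and 5.38 untreated. ZBTB14, a repressor first found at the MYC promoter, averaged 2.67 ± 0.749 CPM after curcumin and 9.51 ± 0.660 CPM untreated (log2 −1.83 ± 0.29). ZBTB40, ZBTB41 and ZBTB44 were named by their small adjusted p and fell by 1.09, 1.40 and 1.31 on the log2 scale. ZBTB40 and ZBTB44 were not called once the length and GC trend was removed (adjusted p = 0.11 and 0.16), and ZBTB41 then stood at −0.49 (adjusted p = 0.0497). ZBTB18 (RP58), a repressor in developing neurons, had 2.39, 2.85 and 4.14 CPM after curcumin and 6.78, 5.01 and 5.78 CPM untreated, and its fall (log2 −0.91 ± 0.33, adjusted p = 0.038) was lost in 6 of 15 alternatives. These were the replicate block, the length and GC trend removed, and leaving out curcumin replicate 1 or 2 or untreated replicate 1 or 3 (adjusted p = 0.053 to 0.14).

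Of 39 ZBTB genes, 12 did not pass the test in either direction. ZBTB17 (MIZ-1), the partner through which MYC represses cell-cycle inhibitors, had 27.0, 22.1 and 13.7 CPM after curcumin and 24.2, 23.5 and 26.6 CPM in untreated cells (log2 −0.24 ± 0.24, adjusted p = 0.41). The telomere-binding factor ZBTB48 (TZAP) had 15.8, 13.2 and 15.1 CPM after curcumin and 19.2, 14.1 and 16.8 CPM untreated (−0.19 ± 0.19, adjusted p = 0.43). Both sets of values overlapped, and both genes were called lower with library size alone (adjusted p = 0.0042 and 0.0013), as was ZBTB48 with the 100 most abundant genes left out of the library total (0.035) and with the length and GC trend removed (0.034). ZBTB1, ZBTB2 and ZBTB5 were at 0.985, 1.07 and 1.28 times the untreated level, with adjusted p from 0.37 to 0.95. With library size alone ZBTB1 and ZBTB2 were called lower (adjusted p = 0.0056 and 0.023). ZBTB43 had 3.88, 4.68 and 17.3 CPM after curcumin and 14.7, 17.1 and 17.7 CPM untreated, and was called lower in 6 of 15 alternatives, among them the fit without curcumin replicate 3 (log2 −1.94, adjusted p = 0.00011). ZBTB12 and ZBTB22 lie in the major histocompatibility region of chromosome 6, and ZBTB12 was listed at 0 in curcumin replicate 3 and ZBTB22 at 0 in untreated replicate 1. Their values are uncertain for that reason.

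Of the 7 ZKSCAN genes, ZKSCAN1, ZKSCAN2, ZKSCAN3 and ZKSCAN8 fell. ZKSCAN1, known as the host gene of an abundant circular RNA, had 14.4, 18.3 and 24.4 CPM after curcumin and 97.8, 74.9 and 119 CPM in untreated cells (5.10-fold lower, log2 −2.35 ± 0.24, adjusted p = 3.6e-05). The counts are per gene and do not separate circular from linear transcripts. ZKSCAN2 had 7.02, 5.23 and 8.90 CPM after curcumin and 20.6, 20.2 and 24.4 CPM untreated (−1.62 ± 0.23, adjusted p = 0.00026). ZKSCAN3 had 4.11, 4.84 and 8.12 CPM after curcumin and 10.5, 15.1 and 14.5 CPM untreated (−1.23 ± 0.29, adjusted p = 0.0051). ZKSCAN8 had 11.3, 14.6 and 24.99 CPM after curcumin and 34.8, 35.9 and 48.4 CPM untreated (−1.23 ± 0.28, adjusted p = 0.0039). In all 4 the groups did not overlap, and all 4 were called lower in each fit that left out a library. ZKSCAN8 was not called with the length and GC trend removed (−0.50, adjusted p = 0.11). ZKSCAN4 had 4.33, 6.58 and 8.90 CPM after curcumin and 5.61, 4.07 and 4.60 CPM untreated (0.47 ± 0.32, adjusted p = 0.24). ZKSCAN5 had 16.6, 21.5 and 35.6 CPM after curcumin and 19.8, 16.7 and 19.0 CPM untreated (0.41 ± 0.26, adjusted p = 0.21), and was called higher without curcumin replicate 1 (0.62, adjusted p = 0.049). ZKSCAN7 had 4 counts in the curcumin and 9 in the untreated libraries and was not tested.

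The ZSCAN genes that fell, ZSCAN2, ZSCAN9, ZSCAN22 and ZSCAN26, were all expressed at low levels and had log2 fold changes between −1.04 and −0.78. They were 28.6% of the 14 tested ZSCAN genes, against 28.9% lower among all genes. Falls of at least 2-fold were called for 7.14%, against 17.4% of all genes. ZSCAN22 had 2.02, 2.70 and 3.59 CPM after curcumin and 5.11, 5.46 and 6.53 CPM in untreated cells (log2 −1.04 ± 0.33, adjusted p = 0.022), and was not called with the length and GC trend removed (−0.78, adjusted p = 0.058). ZSCAN26 had 3.21, 1.98 and 4.14 CPM after curcumin and 5.91, 6.66 and 5.94 CPM untreated (−0.99 ± 0.34, adjusted p = 0.029). ZSCAN2 had 3.88, 4.04 and 7.65 CPM after curcumin and 11.02, 8.22 and 10.5 CPM untreated (−0.93 ± 0.31, adjusted p = 0.026). ZSCAN9 had 4.11, 3.01 and 4.999 CPM after curcumin and 8.03, 6.04 and 6.80 CPM untreated (−0.78 ± 0.30, adjusted p = 0.044). Groups did not overlap in these 4 genes, but the calls rested on single libraries. Of the 21 ZSCAN genes, 0 were called lower without curcumin replicate 2 or untreated replicate 3, 1 without curcumin replicate 1 or untreated replicate 1, 3 without untreated replicate 2 and 7 without curcumin replicate 3. ZSCAN25 had 9.04, 8.56 and 28.0 CPM after curcumin and 9.36, 11.5 and 9.87 CPM untreated (0.57 ± 0.41, adjusted p = 0.26), with only replicate 3 above the untreated range.

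A few members had no or nearly no counts in untreated cells. ZSCAN4, a telomere-associated gene of the early embryo in mouse, had 6, 5 and 31 counts after curcumin and 0 in each untreated library. ZSCAN18, known for promoter methylation in gastrointestinal cancers, had 6, 15 and 30 counts after curcumin and 0 untreated. On the TMM scale, the curcumin mean was 9.20 times a floor of 3 counts per untreated library for ZSCAN4 and 11.2 times for ZSCAN18. These ratios carry no error for the spread among curcumin libraries. Without curcumin replicate 3, a comparison added after seeing the data, the ratios were 3.57 and 6.92. ZSCAN5B had 37 counts in the curcumin libraries and 3 in the untreated ones, a ratio of 24.2 with a 95% exact counting interval of 7.67 to 123. These 3 genes did not pass the filter, and when no filter was used edgeR called them higher (adjusted p = 0.00031 for ZSCAN4, 7.8e-05 for ZSCAN18 and 0.0052 for ZSCAN5B). They were grouped here by their low untreated counts in this same comparison, so these p-values give no separate support. All 3 genes lie on chromosome 19. ZSCAN10, a pluripotency factor in mouse embryonic stem cells, had 21 counts after curcumin and 12 untreated, all 12 in untreated replicate 1. ZBTB16 (PLZF), ZSCAN1 and ZSCAN23 were listed at 0 in all 6 libraries, and ZBTB9, ZBTB32 and ZSCAN5C had at most 8 counts in a group.

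Several SCAN genes stand next to each other. In the cluster on chromosome 6 (28124560 to 28443502, GRCh38), 9 members form a chain with gaps of at most 1000000 bases. Of these, 8 were tested, 4 fell (ZKSCAN8, ZSCAN9, ZSCAN26 and ZKSCAN3) and 0 rose, with a median of −0.88, against 28.9% lower among all genes. The call of ZKSCAN8 was lost with the length and GC trend removed, that of ZSCAN9 in 7 and that of ZSCAN26 in 4 of 15 alternatives. ZKSCAN4 lies between ZSCAN9 and ZSCAN26 and had a value above 0. ZKSCAN3 and ZSCAN31 overlap on opposite strands, and their reads in the overlap cannot be told apart without strand. The cluster on chromosome 7 (99504651 to 100065038) held ZKSCAN5, ZSCAN25, ZKSCAN1 and ZSCAN21, of which ZKSCAN1 alone fell (median −0.05). Between neighbours on chromosome 7 the log2 fold change thus ran from −2.35 for ZKSCAN1 to 0.57 for ZSCAN25. At the end of chromosome 19 (57668935 to 58538911) both tested genes fell, ZSCAN22 and ZBTB45, while ZSCAN4 and ZSCAN18 had counts after curcumin only.

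**Figure D3:**
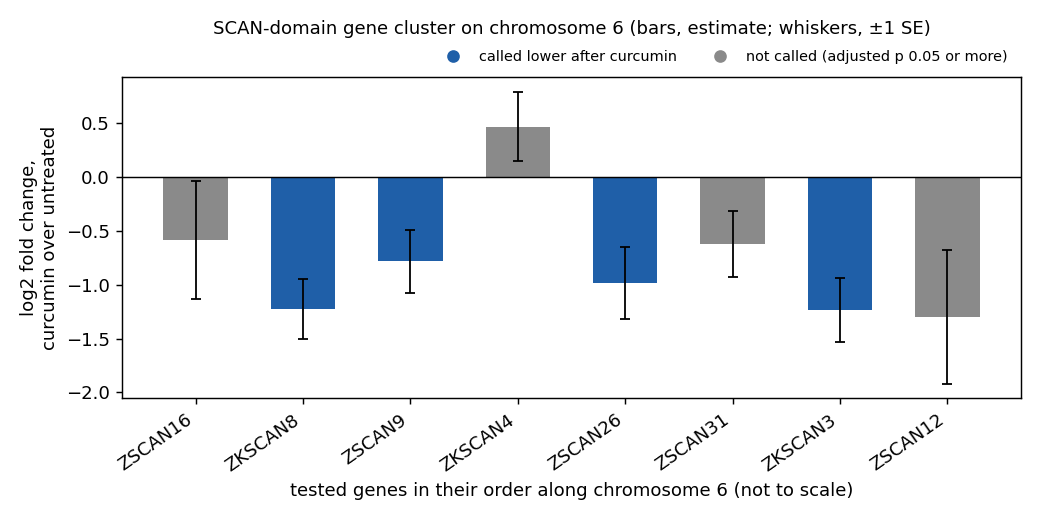
Log2 fold change (y axis, curcumin over untreated, whiskers 1 SE) of the 8 tested genes of the chromosome 6 cluster in their genomic order. Bars of ZKSCAN8, ZSCAN9, ZSCAN26 and ZKSCAN3 are called lower, and ZKSCAN4 alone lies above 0, at 0.47 with no call.

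The members have long transcripts, and in these libraries log2 fold change falls with transcript length. The longest coding transcript had a median of 4443 nt over the 59 tested members, 5198 nt for ZBTB, 3687.5 nt for ZSCAN and 6087.5 nt for ZKSCAN genes, against 3388 nt over tested protein-coding genes. Spearman's rho between log2 fold change and length was −0.44 across the 59 members and −0.45 across 13188 protein-coding genes, a description only, since the genes share the same libraries. In 5 classes of equal size by length, the shortest (up to 1954 nt) had 0 of 3 members called lower, against 8.75% of its coding genes. From 1955 to 2848 nt the figures were 3 of 8 members (37.5%) and 17.2% of genes. From 2849 to 4001 nt they were 6 of 11 (54.5%) and 26.7%, and from 4002 to 5739 nt 8 of 18 (44.4%) and 39.9%. Among genes of 5740 nt or more, 15 of 19 members (78.9%) and 55.7% of coding genes were lower, while ZBTB11 and ZBTB21 are also in that class.

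With the trend of length and GC content taken out of each library, 22 of 59 members were called lower (37.3%) and 2 higher (3.39%). Over all genes tested the shares were 22.3% and 25.8%. The median was −0.49 over the members and 0.04 over all genes. Of 39 ZBTB genes 15 were lower and 2 higher, of 14 ZSCAN genes 4 and 0, and of 6 ZKSCAN genes 3 and 0. On that scale ZBTB42, ZBTB3, ZBTB45 and ZBTB39 stood lowest, at −2.76, −2.25, −2.14 and −2.13 (adjusted p = 0.00011, 0.00078, 6.6e-05 and 3.0e-05), while ZBTB8A and ZKSCAN1 stood at −1.66 and −1.57. With library size alone 47 of the 59 members were lower (79.7%) and 0 higher, against 56.5% and 9.62% of all genes. Genes named ZNF followed by a number, zinc finger genes for the most part, were lower in 150 and higher in 45 of 376 tested on the TMM scale (39.9% and 12.0%, median −0.67). Once the length and GC trend was removed 114 were lower and 47 higher (30.3% and 12.5%, median −0.39). The difference between these groups of genes was not tested.

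**Figure D4:**
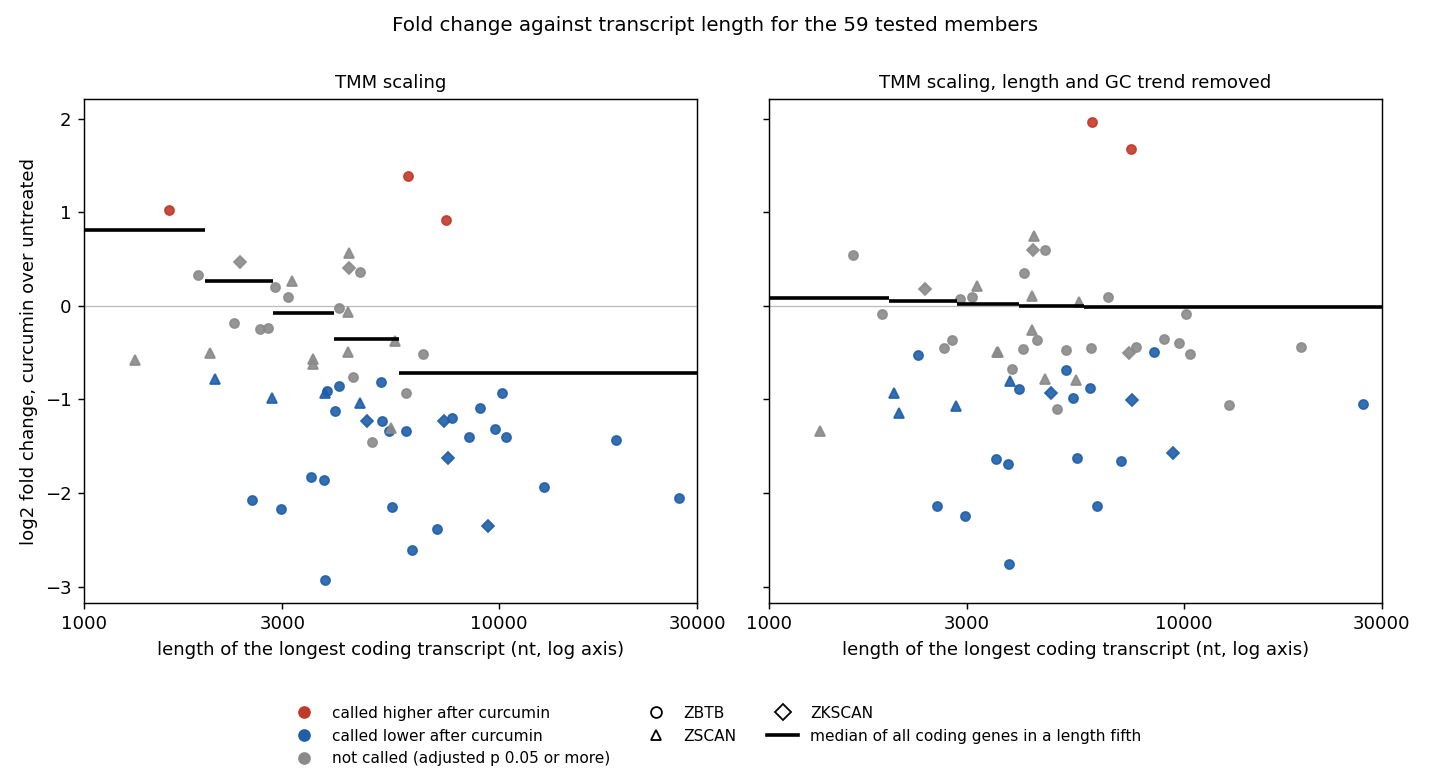
Log2 fold change (y axis) of the 59 tested members against the length of the longest coding transcript (x axis, log scale), with TMM scaling (left) and with the length and GC trend removed (right). Black lines give the median of all coding genes in each of 5 length classes, from 0.81 to −0.72 on the left and near 0 on the right, where 22 members are called lower and ZBTB11 and ZBTB21 higher.

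BTB zinc finger genes that carry other names gave a mixed picture. Of 8 measured, 1 rose and 2 fell, with a median of 0.26, against 27.2% higher and 28.9% lower among all genes. With the length and GC trend removed 3 were higher and 1 lower (median 0.49), and with library size alone 0 and 4 (median −0.55). GZF1, a repressor responsive to the growth factor GDNF, averaged 44.5 ± 4.87 CPM after curcumin and 20.8 ± 1.55 CPM in untreated cells (SD, n = 3, log2 1.09 ± 0.16), with no call under library size alone (adjusted p = 0.17). PATZ1 fell by 1.58 and HIC2 by 1.22 on the log2 scale. HIC2 was not called once the length and GC trend was removed (adjusted p = 0.15). Of 20 SCAN-domain genes under other names, 1 rose and 5 fell, with a median of −0.26, against the same shares of all genes. With the length and GC trend removed 2 were higher and 5 lower (median −0.07), and with library size alone 1 and 15. ZNF394 averaged 46.6 ± 26.1 CPM after curcumin and 14.4 ± 1.61 CPM untreated (1.69 ± 0.33), with 27.6, 35.8 and 76.4 CPM in the curcumin libraries. ZNF397 and ZNF215 fell by 1.85 and 1.33 on the log2 scale.

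Among 22 corepressors used by BTB and KRAB factors, 5 rose and 10 fell, with a median of −0.16, against 27.2% higher and 28.9% lower among all genes. Once the length and GC trend was removed 8 were higher and 7 lower (median 0.04), and with library size alone 0 were higher and 16 lower (median −0.96). TRIM28, the KRAB corepressor, was chosen for mention after its value was seen, and averaged 1767 ± 37.4 CPM after curcumin and 857 ± 162 CPM in untreated cells (log2 1.04 ± 0.16). The deacetylases HDAC1 and HDAC3 rose by 1.08 ± 0.14 and 0.998 ± 0.13. None of TRIM28, HDAC1 and HDAC3 was called under library size alone (log2 0.24, 0.27 and 0.20). SIN3A, a scaffold for deacetylases, averaged 19.9 ± 4.60 CPM after curcumin and 70.2 ± 8.93 CPM untreated (−1.82 ± 0.20), and CBX5, the heterochromatin protein HP1 alpha, fell by 1.68 on the log2 scale.

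Genes tied to single members moved in both directions. Over all genes tested, 27.2% were called higher and 28.9% lower. Of the 4 ICF syndrome genes, ZBTB24, DNMT3B and HELLS fell, HELLS without a call once the length and GC trend was removed (adjusted p = 0.13), while CDCA7, which ZBTB24 is known to activate, averaged 39.5 ± 10.2 CPM after curcumin and 36.6 ± 5.47 CPM in untreated cells (adjusted p = 0.68). DNMT3B, a DNA methyltransferase, averaged 8.21 ± 1.20 CPM after curcumin and 24.9 ± 7.89 CPM untreated. Of 7 autophagy and lysosome genes tied to ZKSCAN3, 3 rose and 2 fell, with a median of 0.14. With the length and GC trend removed 4 were higher and 2 lower (median 0.49), and with library size alone 1 and 4 (median −0.67). The autophagy receptor SQSTM1 averaged 856 ± 24.8 CPM after curcumin and 330 ± 19.8 CPM untreated (log2 1.37 ± 0.13), and the lysosomal membrane protein LAMP1 rose by 1.03. LAMP1 was not called under library size alone (0.21, adjusted p = 0.19). ULK1, the kinase that starts autophagy, fell by 1.35 and WIPI1 by 0.72 on the log2 scale. Of MYC, MAX and 3 cell-cycle inhibitor genes linked to ZBTB17, CDKN1A rose and CDKN1C fell by 0.97 on the log2 scale. CDKN1A averaged 410 ± 105 CPM after curcumin and 176 ± 26.6 CPM untreated (log2 1.22 ± 0.20). It was not called under library size alone (0.41, adjusted p = 0.066). With the length and GC trend removed 1 of these genes was higher and 3 lower (median −0.46). MYC and MAX were then called lower (−0.91 and −0.43, adjusted p = 0.012 and 0.044). With library size alone 0 were higher and 4 lower.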

How the data were processed

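RNA was sequenced from HCT116 cells in 3 curcumin and 3 untreated libraries, made with a SMARTer mRNA-Seq kit per the labels' protocols. The authors deposited a table of estimated counts per gene, unscaled between libraries. No aligner or quantifier is given in the sources used here, nor is the way multiply mapped reads were split. Per the submitters' processing notes the builds were GRCm38 and mm10, but all 35106 rows carry human Ensembl identifiers, of which 35003 were matched to GENCODE release 29 (GRCh38) for gene type, position and transcript length. Counts were rounded to whole numbers, kept where filterByExpr allowed (minimum count 10, minimum total count 15) and normalized by TMM. The quasi-likelihood test of edgeR 4.0.16 (R 4.3.3) was run without a replicate term, and p-values were adjusted by Benjamini-Hochberg over all 13718 genes. A gene was called at an adjusted p under 0.05. CPM values are TMM-scaled, and errors of mean CPM are SD over 3 libraries. Errors of fold changes, given as SE, were back-calculated as the absolute log2 fold change over the square root of the test's F statistic. The test was checked on simulated data with a small set of changed genes, balanced in direction, and no shift in composition between libraries. That check therefore does not cover the choice of scaling.

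Alternatives were RLE factors, library size alone, library size less its 100 most abundant genes, unfiltered genes, only genes averaging 50 counts or more, DESeq2 1.42.0, limma-voom (limma 3.58.1), the replicate number as a block, each library left out, and each library's loess trend with length and GC content (span 0.3) removed. Named members follow a rule. It takes up to 8 ZBTB and 5 ZSCAN genes with the smallest adjusted p in each direction at a mean of at least 1 CPM, every ZKSCAN gene, members with a well known role, and up to 2 genes in each direction of the further lists. Others were named after their values were seen. A gene that the rule takes from a further list is not reported here. Members and lists were chosen with earlier results of these data known.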

Additional observations from a re-analysis of the deposited data

How the results depend on the processing

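Of 32 lower members, 17 kept their call in all 15 alternatives, as did 0 of the 3 higher ones, and no called member changed direction in any of them. With library size alone 1320 genes were higher and 7747 lower over all genes, 0 ZBTB genes were higher and 11 ZSCAN genes lower, and ZBTB2 was at −0.73 (log2, adjusted p = 0.023) in place of 0.09. On the TMM scale those counts were 3732, 3964, 3 and 4. With the 100 most abundant genes left out of the library total 10 ZSCAN genes were lower. With the length and GC trend removed 15 ZBTB genes were lower in place of 24. With no filter 3 ZSCAN genes were higher in place of 0. Leaving out a library gave 3253 to 3843 higher and 3369 to 4306 lower genes, 2 to 3 higher and 20 to 27 lower ZBTB genes, 0 to 2 higher and 0 to 7 lower ZSCAN genes, and 0 to 1 higher and 4 lower ZKSCAN genes. ZBTB6 lost its call without curcumin replicate 2, and ZBTB46 without that or untreated replicate 3. The causes were not tested. Replicate numbers are shared by the groups. Deviations of same-numbered libraries had correlations of 0.04, 0.02 and 0.11, the last, for replicate 3, being the highest of all. Differently numbered libraries had correlations from −0.08 to 0.04. With the replicate block 4011 genes were lower, as were 24 ZBTB, 3 ZSCAN and 4 ZKSCAN genes, and 3 ZBTB genes were higher. ZBTB18 and ZSCAN9 lost their calls under the block (adjusted p = 0.053 and 0.051). Members under 2 CPM rest on few counts, and a missing call there is not evidence of no change.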
